A study of Mus musculus with 2 samples.

Results

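The 47 genes described here encode the machinery of DNA replication and S phase, the part of the cell cycle in which the genome is copied. They were listed by name, with earlier results of these data known, although no measured value enters the list. Each gene took the probe set with the highest mean intensity over both arrays among those annotated with its symbol alone. Of the 47, 46 genes had such a probe set, out of 18193 genes on the array. Chaf1a had none under this rule and is not analysed here. The measurements came from the retina of 1 wild-type mouse embryo and the retina of 1 Sox11-/- littermate, both C57BL/6 and both at embryonic day 18. For each genotype, RNA from a single retina was primed with oligo-dT, amplified and turned into biotin-labelled cRNA for 1 Affymetrix array. Sox11 is a transcription factor of differentiating neurons, and the extent of its deletion is not stated in the labels. As each genotype has a single array, neither an error nor a test is possible, and each difference below is one between 2 arrays.

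Replication begins when origin recognition proteins, Cdc6 and Cdt1 load the ring-shaped MCM helicase onto DNA. Cdc45 and the GINS complex then turn the ring into an active helicase, polymerases copy both strands, and a sliding clamp, its loader and a ligase finish the new DNA. E2F factors, released from the retinoblastoma proteins as cyclin E activity rises, drive transcription of many of these genes. In the retina around birth they mark dividing progenitors, since neurons leave the cycle for good. In bulk tissue, fewer cells of a type and less RNA per cell cannot be told apart.

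Both arrays had been scaled alike, with a mean intensity of 100 once the top and bottom 2% of probe sets were trimmed. Retinal transcription factors were well measured: Pax6 read 2160.9 on the wild-type array and 2085.8 on the knockout array, and Rax read 564.8 and 578.9. Pairs of intensities are given in that order throughout. The 6 probe sets of Sox11 had log2 ratios from -3.64 to 1.08, 5 of them negative. Ratios are knockout minus wild type of log2(intensity + 5), which understates the change of dim genes. A gene entered the counts when the higher of its intensities reached 18.6, the pooled median of both arrays, and 11553 genes did, including all 46 members.

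Genes of DNA replication were mostly a little lower on the knockout array. Of the 46 members, 39 (84.8%) had a negative log2 ratio, against 52.1% of the 11553 genes. Their median was -0.16, against -0.012 for all genes. None was 2-fold apart in either direction, where 0.407% of all genes were at least 2-fold lower and 0.961% at least 2-fold higher, so the count of 0 is close to what shares of that size give among 46 genes. The ratios ran from -0.63 for Rrm2 to 0.38 for Gins2. At a line of 1.2-fold, set after the ratios were seen, 12 members (26.1%) were lower, against 12.5% of all genes, and 1 was higher, against 14.5%. Some probe sets, marked s, x or a in their suffix, can match more than 1 transcript. When these were dropped, 6 of 42 members (14.3%) were 1.2-fold lower, near the 11.9% of all genes in that setting. Genes at like intensity leaned the same way by less: among 3285 other genes between the quartiles of the members' mean log2 value, 57.4% were negative, the median was -0.03, and 8.49% were 1.2-fold lower.

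**Figure D1:**
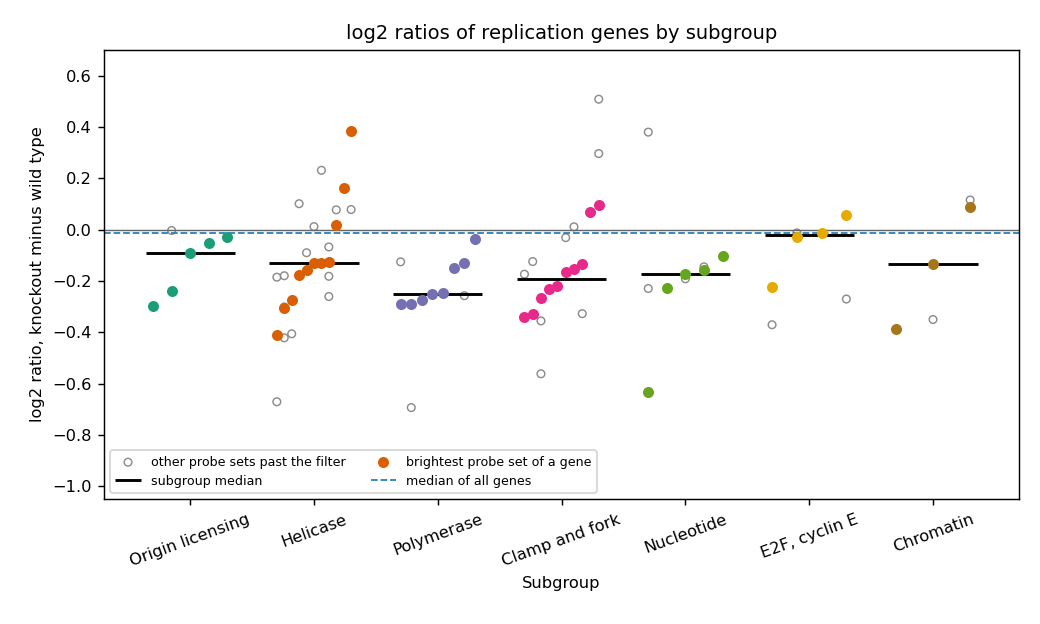
log2 ratios (knockout minus wild type, log2(intensity + 5)) of the 46 measured genes in 7 subgroups: filled points are the brightest probe set of a gene, open points its other probe sets past the filter, black bars the subgroup medians and the dashed line the median of all 11553 genes. All 8 polymerase and 5 nucleotide genes lie below 0, 3 of the 4 E2F and cyclin E genes lie near the dashed line with E2f2 below it at -0.22, and Gins2 is the highest gene at 0.38.

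Promoter sequence was compared because E2F factors act on many of these genes. RefSeq windows of build GRCm38.p6, from 250 bases before to 50 after a gene's start, were held for 39 of the 47 genes. The E2F words TTTCCCGC, TTTGGCGC, TTTCGCGC and TTTGCCGC were searched on both strands. A word was present for 15 of the 39 genes (38.5%), against 2.61% of 27025 genes in the table. Many of those 27025 were not measured here. Among genes past the filter with a window, a word was present for 15 of 38 members and 455 of 9390 genes. Of the MCM2-7 genes, 4 of the 5 with a window held a word, and in 9 of the 15 genes a word lay before the start. The words can overlap one another, as they do in Mcm5 and Mcm6. The 7 stretches below, each with 30 bases on either side of its words, are written along the gene's strand with the words in capitals. The first 5 belong to genes with a negative ratio, and Mcm5, Mcm6 and Mcm7 among them encode subunits of the helicase ring. Gins3 and Uhrf1 are shown beside them because they carry the same kinds of word and were not lower. The 7 are part of 16 stretches found. Not shown are Orc1 (log2 ratio -0.05) and Rfc3 (-0.15), which also have a word before the start. A second word of Mcm7, after the start, is not shown either, nor are genes with words only after it.
Mcm5, chr8:75109326-75109397, plus strand: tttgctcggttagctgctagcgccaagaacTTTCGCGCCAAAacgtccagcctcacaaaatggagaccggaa
Mcm6, chr1:128359715-128359845, minus strand: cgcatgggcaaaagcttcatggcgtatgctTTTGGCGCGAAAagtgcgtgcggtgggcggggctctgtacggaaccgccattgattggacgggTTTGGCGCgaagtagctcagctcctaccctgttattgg
Mcm7, chr5:138172011-138172078, minus strand: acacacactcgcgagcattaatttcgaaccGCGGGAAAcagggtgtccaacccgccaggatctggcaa
Cdc6, chr11:98907983-98908050, plus strand: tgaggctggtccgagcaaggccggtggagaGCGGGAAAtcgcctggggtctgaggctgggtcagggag
Pola1, chrX:93632256-93632323, minus strand: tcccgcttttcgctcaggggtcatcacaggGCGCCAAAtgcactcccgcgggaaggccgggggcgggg
Gins3, chr8:95633488-95633555, plus strand: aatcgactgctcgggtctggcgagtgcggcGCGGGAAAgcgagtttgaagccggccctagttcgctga
Uhrf1, chr17:56304098-56304165, plus strand: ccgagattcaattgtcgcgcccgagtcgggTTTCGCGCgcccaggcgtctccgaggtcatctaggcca

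The 15 measured members with an E2F word had a median log2 ratio of -0.23, and 13 of them were negative. The 23 measured members with a window but no word had a median of -0.16, and 19 were negative. Over the array, 440 genes outside the list carried a word, and 59.5% of them were negative with a median of -0.04, while the 8935 genes without one, members included, had 51.7% negative and a median of -0.0094. The CCAAT word, which nuclear factor Y binds, was present on either strand for 24 of the 39 genes (61.5%), against 41.1% of all genes in the table. Among genes past the filter with a window, it was present for 23 of 38 members and 4076 of 9390 genes. Members with it had a median of -0.17 and measured members without it -0.23. The word TTTGAA, the core of an element known from mitotic genes, was present for 6 of the 39 (15.4%), against 20.2% of all genes in the table. Among genes past the filter with a window, TTTGAA was present for 6 of 38 members and 1282 of 9390 genes. Its lower share in members did not hold there. A match is a run of letters and not a measured binding site.

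The counts of negative genes in each subgroup below stand beside 52.1% negative over all genes and 57.4% among other genes at like intensity. Among the licensing genes, which prepare origins for replication, all 5 were lower, with a median ratio of -0.09. Cdc6, which loads the helicase together with the origin recognition complex, read 295.7 and 239.9, a log2 ratio of -0.30. Cdt1, its partner in loading, read 1531.9 and 1297.4, a log2 ratio of -0.24, while its next probe set read 472.9 and 471.8 and was level. Gmnn encodes geminin, the inhibitor of Cdt1 that prevents a second round of licensing, and read 769.6 and 722.9, a log2 ratio of -0.09. The origin recognition subunits were closest to level. Orc6 read 325.9 and 319.6 (log2 ratio -0.03), and Orc1 read 30.8 and 29.5 (log2 ratio -0.05), not far above the filter.

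The 6 subunits of the MCM2-7 ring, the core of the replicative helicase, were all lower on the knockout array, with a median of -0.15. Mcm5 read 1754.7 and 1317.4, a log2 ratio of -0.41, and its 3 probe sets past the filter were all negative. The second of them gave -0.19, and the third, dim at 25.4 and 14.1, gave -0.67. Mcm7 read 2414.6 and 1952.7, a log2 ratio of -0.31, and its 4 probe sets ran from -0.42 to -0.18. The ratios of the other 4 subunits lay closer to 0 and to one another. Mcm6 read 1840.8 and 1630 (log2 ratio -0.17), and Mcm2 read 664.3 and 606.1 (-0.13). Mcm3 read 855.4 and 783.2 (-0.13), with all 5 of its probe sets negative, and Mcm4 read 937.3 and 855.7 (-0.13). The second probe sets of Mcm2, Mcm4 and Mcm6 were on the other side of 0, at 0.012, 0.23 and 0.10, so the direction of these 3 subunits depends on the probe set.

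The factors that activate the ring were mixed. Of the GINS subunits and Cdc45, grouped after their values were seen, 3 of 4 had a positive ratio and the median was 0.09. Gins2 read 158 and 207.7, a log2 ratio of 0.38, and was the member highest on the knockout array; its other probe set gave 0.08. Cdc45 read 137.8 and 154.9 (log2 ratio 0.16) and Gins3 read 67.9 and 68.9 (0.02). Gins1 was lower, at 385.6 and 318.1, a log2 ratio of -0.27. Mcm10, a factor that joins the helicase to the polymerases, read 146.9 and 131.1 (-0.16). Over the 11 helicase genes together, 8 were negative and the median was -0.13, or -0.06 with each gene given its probe sets' median.

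**Figure D2:**
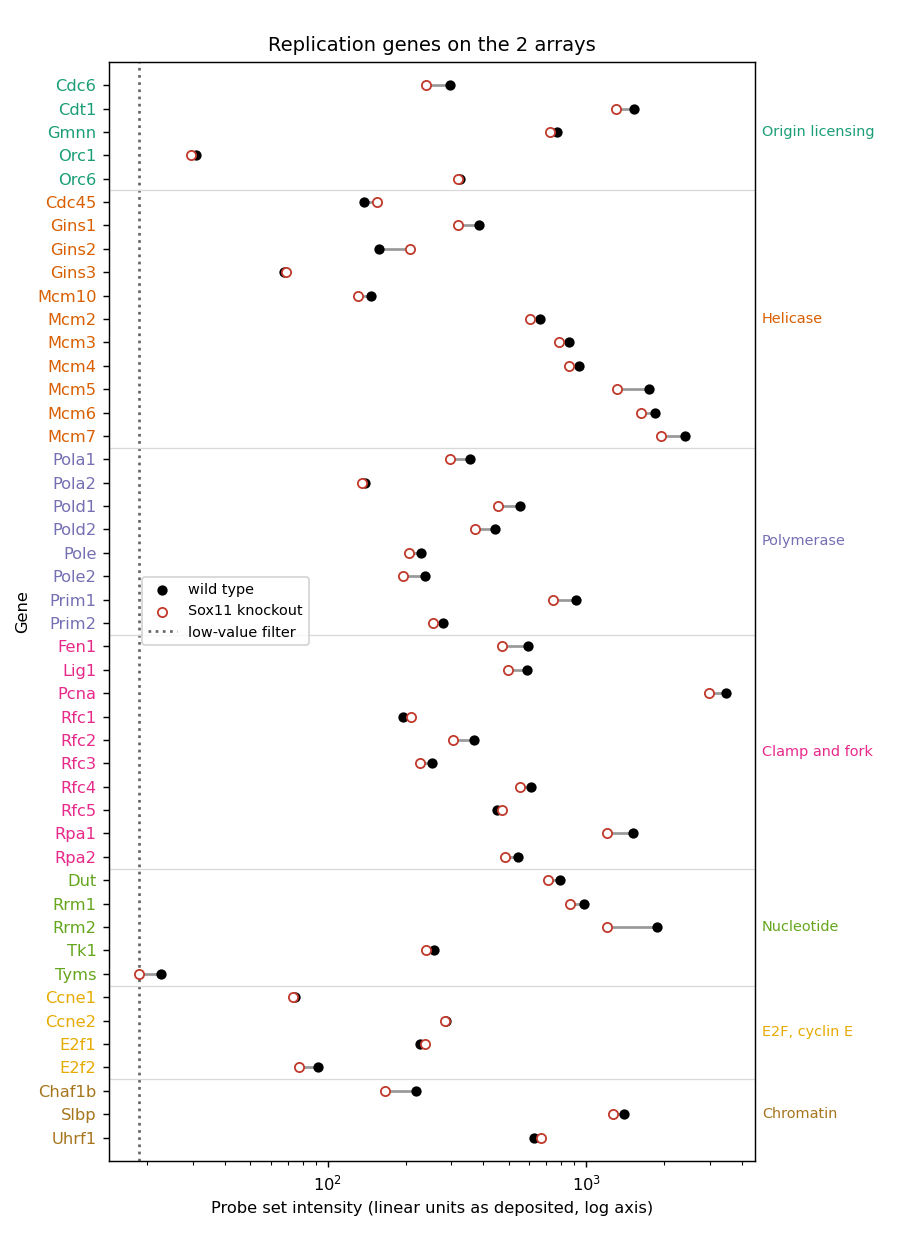
Intensity of the brightest probe set of each of the 46 measured genes on a log axis, in the wild type (black) and the Sox11 knockout (open red), grouped by subgroup, with the low-value filter of 18.6 as a dotted line. Black points lie to the right of the red ones for 39 genes, and the widest gap is that of Rrm2, from 1874.1 to 1206.9.

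All 8 polymerase genes were negative, with a median of -0.25, and their range, from -0.29 to -0.04, was the narrowest of the 7 subgroups. Prim1 and Prim2 encode primase, which lays down the RNA primers. Prim1 read 910.6 and 744.7, a log2 ratio of -0.29, and its other probe set went from 692.5 to 426.4, a log2 ratio of -0.69. Prim2 read 279.2 and 254.7 (-0.13), against -0.26 for its other probe set past the filter. Pola1, the catalytic subunit of polymerase alpha, which extends the primers, read 354 and 297.2 (-0.25), and the accessory subunit Pola2 read 138.6 and 135.1 (-0.04). Of polymerases delta and epsilon, which copy most of the genome, the 4 listed subunits were also lower. Their other subunits, outside the list, were higher: Pold3 (0.43), Pold4 (0.15), Pole3 (0.11) and Pole4 (0.15). Pold1, the catalytic subunit of polymerase delta, read 555.7 and 453.5 (-0.29), against -0.13 for its other probe set. Its partner Pold2 read 442.3 and 370.8 (-0.25). For polymerase epsilon, the catalytic Pole read 228.7 and 205.8 (-0.15) and Pole2 read 237.9 and 195.7 (-0.28). Pola1 is the only member on the X chromosome. The arrays differed in Xist, at 12.3 and 922.7, the highest log2 ratio of all 11553 genes (5.74). The 382 X-linked genes past the filter had a median of 0.0033. With 1 embryo per genotype, a difference in embryo sex, which Xist would mark, cannot be told apart from genotype. Whether this bears on Pola1 or on the other members was not tested.

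At the fork, 8 of 10 genes were negative, with a median of -0.19. Pcna, the sliding clamp that holds the polymerases on DNA, was measured by a single probe set, at 3470.8 and 2982.2, a log2 ratio of -0.22. Rpa1, the large subunit of the protein that coats single-stranded DNA, read 1521.4 and 1202 (-0.34), against -0.17 for its other probe set. Rpa2 read 544.4 and 484.4 (-0.17), against -0.03 for its other probe set. Fen1, the nuclease that trims the primers, read 594.6 and 471.9 (-0.33), against -0.12 for its other probe set. Lig1, which seals the remaining nicks, read 587.2 and 499.8 (-0.23). The clamp loader was mixed. Rfc2 read 368.2 and 305 (-0.27), against -0.36 and -0.56 for its other probe sets. Rfc3 read 253.6 and 227.8 (-0.15), against 0.01 for its other probe set. Rfc4 read 608.6 and 553.6 (-0.14), against -0.33 for its other probe set. The large subunit Rfc1 read 195.9 and 209.7 (0.10), and its other probe sets were higher still, at 0.30 and 0.51. Rfc5 read 450.3 and 472.1 (0.07).

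All 5 genes of nucleotide supply were negative, with a median of -0.17. Rrm2, the small subunit of ribonucleotide reductase, which makes deoxynucleotides, had the lowest ratio of all members, at 1874.1 and 1206.9 with a log2 ratio of -0.63. Its probe sets did not share a direction: the second read 729.8 and 621.8 (-0.23), and the third read 443.2 and 578.2 (0.38). The large subunit Rrm1 was steadier, at 978.2 and 867.2 (-0.17), with -0.19 from its next probe set. Dut, which removes dUTP, read 791.6 and 709.4 (-0.16), and the thymidine kinase Tk1 read 257 and 238.8 (-0.10). Tyms, the thymidylate synthase, was barely measured: its brightest probe set read 22.5 and 18.5, the latter below the filter, and the other 3 lay below the filter on both arrays.

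The E2F and cyclin E genes, which act upstream of the others, were close to level, with a median of -0.02 and 3 of 4 negative. Ccne1 read 74.9 and 73.4 (-0.03) and Ccne2 286.7 and 284.3 (-0.01); both encode forms of cyclin E, the partner of Cdk2 at S phase entry. E2f1, an activating E2F, read 226.9 and 236.5 (0.06), while its other probe set past the filter read 165.3 and 136.2 (-0.27). E2f2, a second activator, read 91.4 and 77.5 (-0.22), with -0.37 from its other probe set. Without the s, x and a probe sets, the median of this subgroup was -0.12, and with the filter raised to 109.4, which left 2 of the 4 genes, it was 0.02. The gap between this subgroup and the polymerase genes was not tested.

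Of the genes that package new DNA, Chaf1b, a subunit of the chromatin assembly factor that places histones behind the fork, read 220.1 and 167, a log2 ratio of -0.39. Slbp, which binds the end of replication-dependent histone messages, read 1397 and 1271.7 (-0.14). Uhrf1, which recruits the maintenance DNA methyltransferase to new DNA, went the other way at 627.1 and 667.6 (0.09), and so did its second probe set at 0.12.

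Probe sets of the same gene did not always share a direction. Among the 46 members, 29 had several probe sets past the filter: in 19 all were negative, in 4 all were positive and in 6 they lay on both sides of 0. The 6 were E2f1, Mcm2, Mcm4, Mcm6, Rfc3 and Rrm2. Between probe sets of the same gene, log2 ratios had a pooled SD of 0.18 in the members and 0.26 over 5612 genes. Over all 84 member probe sets past the filter, 67 were negative. The 52 without an s, x or a suffix had a median of -0.14, with 41 negative, and the 32 with one had a median of -0.21, with 26 negative. The SD between probe sets is not the spread between animals, which these arrays cannot give.

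**Figure D3:**
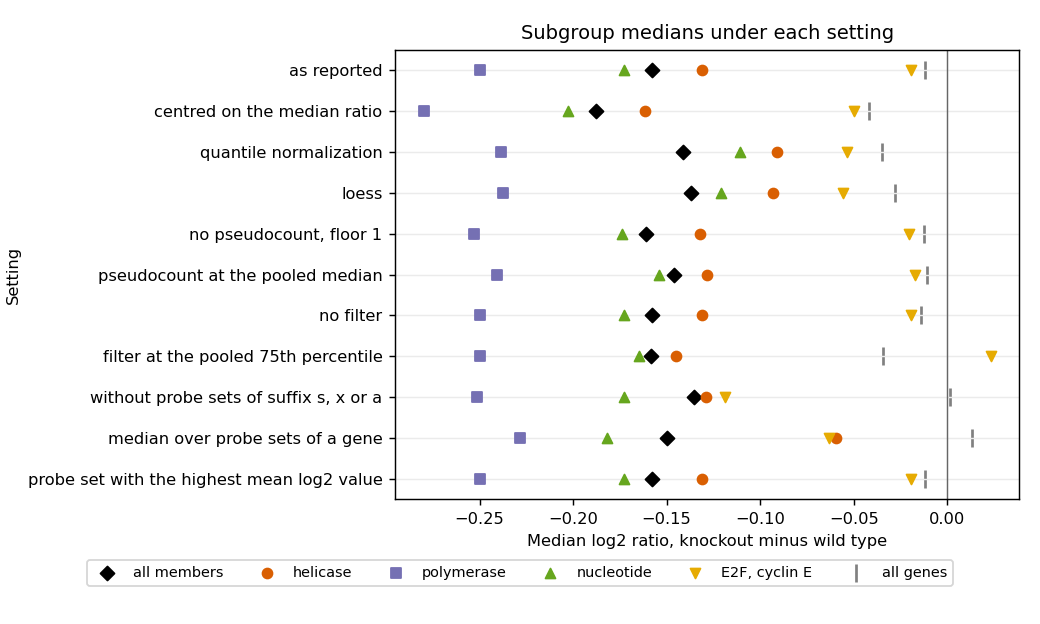
Median log2 ratio (knockout minus wild type) of the 46 members and of 4 subgroups as reported and under 10 other settings, with the median of all genes as grey bars. The members' median stays between -0.19 and -0.14, the polymerase median is the lowest of the 4 subgroups in each setting, and the E2F and cyclin E median moves between -0.12 and 0.02.

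Other genes of the replication pathway were nearer to level. Of 54 further genes of origin firing, fork protection, nucleotide supply and E2F control, 52 passed the filter and none was 2-fold apart. Negative ratios were found in 38 of the 52 (73.1%), against 52.1% of all genes, with a median of -0.06. At 1.2-fold, 1 of the 52 (1.92%) was lower and 3 (5.77%) were higher, both below the 12.5% and 14.5% of all genes. The lowest were Recql4, a helicase needed for origin firing, at 37.7 and 24.9 (-0.51), Wdhd1, which links the helicase to polymerase alpha, at 269.6 and 224.5 (-0.26), and the repressive factor E2f4 at 68.9 and 57 (-0.25). The highest were Pold3, an accessory subunit of polymerase delta, at 272.6 and 369.2 (0.43), E2f5 at 239.2 and 317.9 (0.40) and Chtf18, of an alternative clamp loader, at 28.8 and 36.6 (0.30). So Pold3 lay opposite to its partners Pold1 and Pold2, and Gins4, the fourth GINS subunit, was level at 273.4 and 273.3.

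Mitosis genes, which act later in the same cycle, had a median of like size, -0.13. Of 19, 18 (94.7%) were negative, none by 2-fold, against 52.1% of all genes. At 1.2-fold, 2 of the 19 (10.5%) were lower, below the 12.5% of all genes. Top2a, the topoisomerase that untangles sister chromatids, was furthest from 0, at 2589.7 and 1954.3 (-0.41). Genes that hold cells out of the cycle mostly lay on the other side, some of them near level. Of 9, 8 were positive and 1 (11.1%) was negative, against 52.1% of all genes, with a median of 0.10. At 1.2-fold, 3 of the 9 (33.3%) were higher, against 14.5% of all genes. Among these 3, Cdkn2b passed the filter only through the knockout array, so it had to be positive. Of the 8 genes above the filter on both arrays, 7 were positive. Those of the 8 at least 1.2-fold higher were Cdkn1c and Gadd45a. Cdkn1c, an inhibitor of cyclin-dependent kinases, read 320.4 and 456.2 (0.50), and the growth arrest gene Gadd45a read 277.7 and 499.3 (0.84). Cdkn2b was furthest from 0 but dim, at 7.5 and 27.2, at least 1.46-fold higher against the filter value. The inhibitors Cdkn1b and Cdkn1a were nearer to level, at 0.10 and 0.06.

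**Figure D4:**
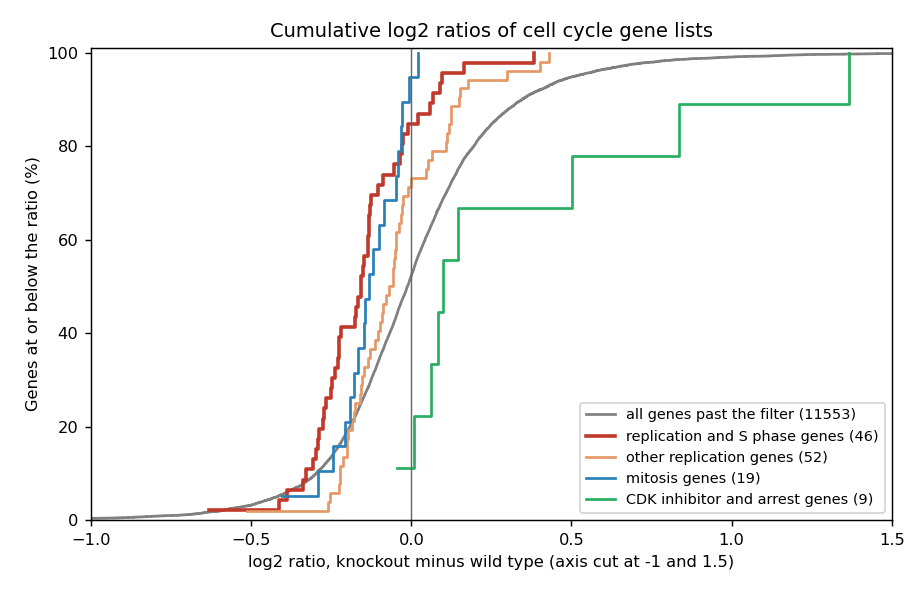
Cumulative share of genes (percent) by log2 ratio (knockout minus wild type) for all 11553 genes past the filter, the 46 replication and S phase genes, 52 other replication genes, 19 mitosis genes and 9 inhibitor and arrest genes. At a ratio of 0, the curve of the 46 genes has reached 84.8% and that of all genes 52.1%, and no replication or mitosis gene reaches a ratio of 1 in either direction.

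The summed intensity of the members was 30906.7 and 26519.9. Genes of progenitors, the dividing cells of the retina, were mixed: they summed to 16458.8 and 16422.4 over 13 genes, with 8 negative and a median of -0.05. The furthest from 0 was Sfrp2, a secreted Wnt antagonist, at 327.8 and 564.9 (0.78), and without it the sums were 16131 and 15857.5. Genes of newly formed neurons summed to 11062.2 and 11264.5, with 6 of 9 negative. Atoh7, a factor of ganglion cell formation, read 945 and 1731 (0.87), and the other 8 summed to 10117.2 and 9533.5. Müller glia genes summed to 9073.5 and 9315.1, with 5 of 9 negative; Rlbp1 was furthest from 0, at 296.5 and 147 (-0.99). Rod genes summed to 1734.8 and 1057.5, with 5 of 6 negative, 2 of which passed the filter only through the wild type. The rod arrestin Sag was furthest from 0, at 246.7 and 42.8 (-2.40). Negative shares were 61.5% for progenitor, 66.7% for newly formed neuron, 55.6% for Müller glia and 83.3% for rod genes, against 52.1% of all genes. In lists this short, the first 3 are near the share of all genes. The part of these cell types in the lower replication signal was not tested.

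Most markers of mesenchyme, macrophages and pigment epithelium past the filter were higher on the knockout array. A marker that passed the filter only through the knockout had to be positive, so those above it on both arrays are given too. Over all 11553 genes, 5510 were positive. Mesenchyme markers summed to 236.3 and 682.9. Of 8 past the filter, 6 passed only through the knockout, among them Col3a1, furthest from 0 at 13.3 and 253.2. Of the other 2, Pdgfra was lower at 156.2 and 74.9 and Col1a2 was higher at 19.6 and 76.1. Pdgfra alone made up most of the wild-type sum. Macrophage markers summed to 326.7 and 713.8; 2 of 8, among them Mpeg1 at 7.3 and 51.1, passed only through the knockout, and the other 6 were all positive. Pigment epithelium markers summed to 281.3 and 418.8; 2 of 6, Tyr and Ttr, passed only through the knockout, and 3 of the other 4 were positive. Among them Dct read 63 and 122.9 and Pmel 85.2 and 131.8, while Rpe65, a defining enzyme, was below the filter at 1.3 and 3.6.

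Lens markers summed to 547.3 and 651.8. Above the filter on both arrays were 5 of them, 3 positive and 2 negative. The 2 negative were Cryab at 183.1 and 72.6 and Cryaa at 116.4 and 79.8. Among the 3 positive, Crygf read 20.7 and 95.6. Crygd, the furthest from 0, read 4.2 and 60.7 and passed the filter only through the knockout. Mip was below the filter at 7.4 and 6.8. Endothelial markers summed to 864.2 and 690.8. That sum is mostly Kdr, at 673.2 and 456.1, and the other 7 summed to 191 and 234.7, with Pecam1 and Cdh5 below the filter on both arrays and Esam, the furthest from 0, at 9 and 25. Red cell genes summed to 43.6 and 52, with only Hba-a2 past the filter, at 32 and 27. How far RNA from any of these cells bears on the ratios of the replication genes was not tested.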

How the data were processed

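The deposited table gives 1 linear intensity per probe set and array, scaled by the authors to a common trimmed mean; this was read from the values, and the summary software is not given in the sources used here. Per the labels' protocols, RNA was reverse transcribed from an oligo-dT primer, amplified and transcribed into biotin-labelled cRNA.

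The 64 control probe sets were left out, leaving 45037. Of these, 34945 had 1 symbol in GEO's platform annotation, 932 had several, and 9160 had none or no entry and stay unnamed here. All 46 member symbols matched RefSeq (GRCm38.p6) through their Entrez number. Intensities became log2(intensity + 5), where 5 is the pooled 25th percentile, with no further normalization. With 1 array per genotype nothing was tested; counts at 2-fold and medians are set beside those of all genes. Every member is named; from the other replication genes the 3 highest and 3 lowest are, and from other lists the gene furthest from 0 is, where given. Cdkn1a, Cdkn1b, Cdkn1c, Gadd45a, Gins4, Pold4, Pole3 and Pole4 were named after their values were seen. So were Crygf, Cryaa, Cryab, Col1a2, Pdgfra, Dct, Kdr, Pmel, Tyr and the defining markers given. The members and lists were chosen with earlier results of these data known. The calculation was tested on simulated data. The planted shifts, in bright genes, were larger than the members' median ratio, and the noise was smaller than the SD between probe sets. That test therefore does not show how well shifts of the members' size are recovered. Python 3.11.15, pandas 2.3.3 and statsmodels 0.14.6 were used.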

Additional observations from a re-analysis of the deposited data

How the results depend on the processing

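The settings were centring on the median ratio, quantile normalization, a loess fit (span 0.3), intensities floored at 1 in place of a pseudocount, a pseudocount of 18.6, no filter, a filter at 109.4, dropping the s, x and a probe sets, the median over probe sets, and choosing a gene's probe set by mean log2 value. Leaving out Pola1, the X-linked member, was added after the data were seen. A median counted as moved when it shifted by more than the SD between probe sets of a gene (0.26, over all genes) divided by the root of the number of genes, and a count when it changed by over 1.5 times. Of 88 comparisons, 87 did not move. With the members' own SD of 0.18, 84 did not: the medians that moved were those of all members after centring (-0.19), of helicase genes with the median over probe sets (-0.06) and of E2F and cyclin E genes without the s, x and a probe sets (-0.12). With the wider SD the exception was the count of members at least 1.2-fold lower, which was 6 without the s, x and a probe sets, against 12. Many of the 88 had little room to move. With no filter, or with the probe set chosen by mean log2 value, each result kept its value. No setting had a member 2-fold apart. Under the wider SD, the E2F and cyclin E median, over 4 genes, counted as not moved at both -0.12 and 0.02. The members' median ranged from -0.19 to -0.14, and the median of all genes from -0.042 to 0.013. The E2F and cyclin E median changed sign, to 0.02, with the filter at 109.4. Of the 39 negative members, 37 were negative in each setting that measured them; Mcm4 and Rfc3 were not. Of the 7 positive members, E2f1 and Gins3 changed sign in some settings. No paired analysis was possible because each genotype has 1 array. For the same reason the spread between animals is unknown, and intensities near the filter, such as those of Tyms and Orc1, limit what can be said of those genes.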
